A study of Mus musculus with 1 sample.

Results

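The expression of 10 genes of early B cell development was examined in c-kit+ bone marrow (BM) cells of Ctrl mice. The genes are *Rag1*, *Rag2*, *Dntt*, *Vpreb1*, *Vpreb3*, *Igll1*, *Cd79a*, *Cd79b*, *Pax5* and *Ebf1*. They were chosen by name as pro-B and pre-B cell genes by a rule that uses no measured value, and their symbols were matched to Ensembl identifiers through GENCODE M21. All 10 were found among the 54532 genes of the deposited table. The study compares c-kit+ BM cells of *Gadd45g*-deficient mice with myeloproliferative neoplasm (MPN) against Ctrl, and the single library described here is that of the Ctrl group. Its cells came from bone marrow of C57BL/6 mice with the wild-type genotype and no treatment is named for them. They were selected with magnetic beads for c-kit, the receptor tyrosine kinase of hematopoietic progenitors, and then sorted by flow cytometry. The description of the sample names cells negative for lineage markers and for Sca-1. The age and number of the mice in this library, and whether they carried the Vav-Cre transgene used to delete *Gadd45g* in blood cells, are not given in the sources used here. The MPN library was not analysed here. No fold change between groups and no p-value can therefore be given, and every error below is counting error within 1 library.

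B cells arise in the bone marrow through ordered stages. In pro-B cells the transcription factors EBF1 and PAX5 set the B cell programme, and the RAG1 and RAG2 proteins cut the immunoglobulin heavy chain locus so that its gene segments can be joined. A successful heavy chain then pairs with the surrogate light chain, made of the VpreB and λ5 proteins, and with the signalling pair CD79a and CD79b to form the pre-B cell receptor. In small pre-B cells RAG1 and RAG2 act again on the light chain loci, and a conventional light chain replaces the surrogate one. *Cd79a*, *Cd79b*, *Pax5* and *Ebf1* remain on in later B cells, while *Dntt*, *Vpreb1* and *Igll1* are textbook marks of the earliest stages. *Rag1*, *Rag2* and *Dntt* also serve T cell precursors in the thymus.

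The deposited values are FPKM, fragments on a gene scaled by its exon length and by the total of the library, so levels of different genes can be compared per unit of length. Fragment numbers were recovered from the FPKM values and rounded. They summed to 17113323 over all genes, more than the 15783891 that the scale of the FPKM values implies. The level of *Kit* itself was 7.17 FPKM (6.74 to 7.62, the 95% Wilson interval of counting error). *Ly6a*, which encodes Sca-1, had 28.5 FPKM, or 3.98 times *Kit* (exact 95% interval, 3.58 to 4.43). The description of the sample names cells negative for Sca-1, which is sorted as a protein, whereas this level is of RNA. The ratio of *Ly6a* to *Kit* depended on the length used. It was 2.96 with the longest protein-coding transcript of each gene and 0.539 in fragments not divided by length. The lineage antibody mixture of the study contains an antibody against B220, the form of CD45 found on cells of the B lineage. The isoforms of *Ptprc*, the CD45 gene, cannot be separated in a value per gene. In a bulk sample, a small number of cells with much of an RNA and a larger number with little of it cannot be told apart.

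All 10 genes reached 1 FPKM, as did 46.8% of the protein-coding genes and 22.2% of all genes in this library. Of the 10 genes 7 reached 10 FPKM, a level met by 21.2% of protein-coding genes and 9.37% of all genes. Their median was 13.5 FPKM, against 0.5997 FPKM over all 21995 protein-coding genes and 8.66 FPKM over the 10290 of these that reached 1 FPKM. The levels were far from even, with a range from 1.13 FPKM for *Rag2* to 173 FPKM for *Cd79a*. *Cd79a* and *Cd79b* alone held 70.2% of the summed FPKM of the 10 genes. Together the 10 genes made up 0.0985% of the summed FPKM of the library, and 0.0294% without that pair. In recovered fragments, which are not divided by length, their share was 0.0752% of the sum of 17113323. That sum includes rounded numbers for genes not recovered exactly, *Dntt* among them, and exceeds the 15783891 that the FPKM scale implies. The share is therefore approximate.

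**Figure D1:**
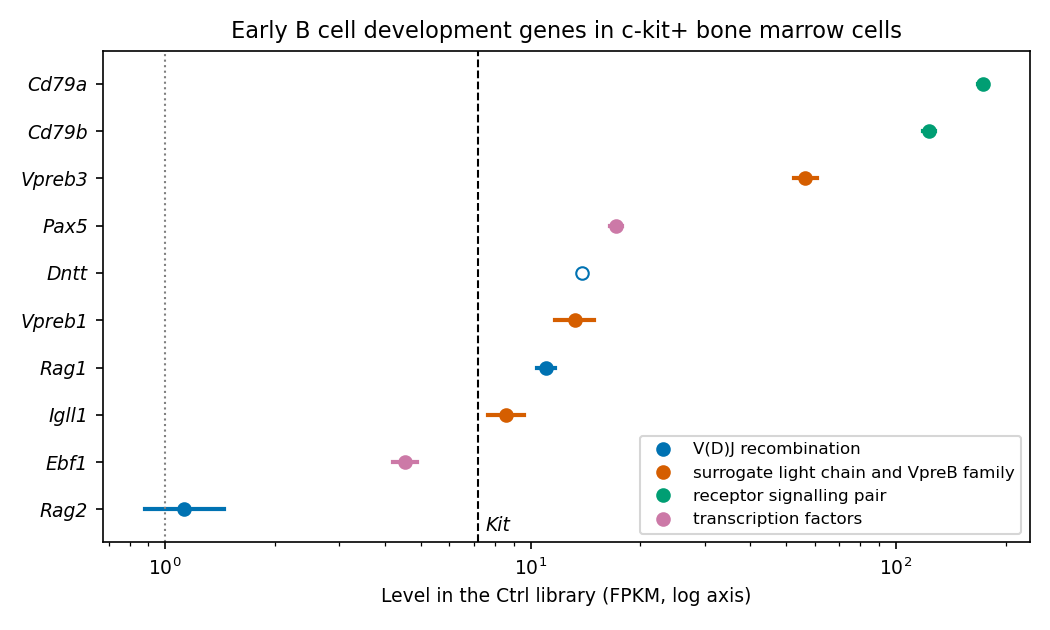
Levels of the 10 early B cell development genes in the library of c-kit+ BM cells of Ctrl mice, in FPKM on a log axis, coloured by role. Bars are 95% Wilson intervals of counting error, the open point (*Dntt*) has no interval, the dotted line marks 1 FPKM and the dashed line the level of *Kit*, 7.17 FPKM. *Cd79a* and *Cd79b* lie above 100 FPKM, and *Ebf1* and *Rag2* lie below *Kit*.

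The signalling pair was the most abundant. *Cd79a* (ENSMUSG00000003379), at 24897381 to 24902197 of chromosome 7 (forward strand), encodes CD79a (Igα), the chain that carries signals of the B cell receptor and its precursor together with CD79b. Its level was 173 FPKM, read from 3975 recovered fragments (95% Wilson interval of counting error, 168 to 178 FPKM), and 286 genes of the library, itself included, stood at or above it. *Cd79b* (ENSMUSG00000040592), at 106311341 to 106314762 of chromosome 11 (reverse strand), encodes Igβ, the other chain of that dimer. Its level was 123 FPKM from 2789 fragments (interval, 119 to 128 FPKM). *Cd79a* was thus 1.40 times *Cd79b*, with an exact 95% interval of 1.33 to 1.47 for counting error. The 2 genes have nearly the same exon length, 1457 and 1431 bases, and the ratio was 1.43 without division by length. They were above 98.9% and 98.3% of the protein-coding genes. Of the stretches of 50 bases in the *Cd79a* transcript, 8.31% also occur in the annotated gene *Gm32220*, and none of those of *Cd79b* occur in another gene.

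The surrogate light chain genes were much lower than the signalling pair. *Vpreb1* (ENSMUSG00000059305) and *Igll1* (ENSMUSG00000075370) encode VpreB and λ5, the 2 parts of the surrogate light chain, and lie 4417 bases apart on the reverse strand of chromosome 16. *Vpreb1*, from 16868403 to 16870843, had 13.2 FPKM from 250 fragments (interval, 11.7 to 15.0 FPKM). *Igll1*, from 16860671 to 16863985, had 8.58 FPKM from 293 fragments (interval, 7.65 to 9.62 FPKM). By FPKM *Igll1* was thus 0.649 times *Vpreb1* (exact interval, 0.547 to 0.772), but this order depended on the length used. The annotation gives *Igll1* a coding transcript of 870 bases and a second one with a retained intron of 2161 bases, and the exon length of 2164 bases covers both. With the longest protein-coding transcript of each gene the ratio was 1.03 (interval, 0.869 to 1.23), and on fragments alone it was 1.17 (interval, 0.987 to 1.39). Both of those intervals include equal levels. Per coding transcript, *Vpreb1* would have 20.7 FPKM and *Igll1* 21.3 FPKM.

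*Vpreb3* (ENSMUSG00000000903), at 75943057 to 75949657 of chromosome 10 (forward strand), encodes a VpreB-like protein that associates with immunoglobulin heavy chains inside the cell. Its level of 56.6 FPKM came from 767 fragments (interval, 52.7 to 60.7 FPKM), the third highest of the 10 genes. *Vpreb3* was 4.28 times *Vpreb1* (exact interval, 3.71 to 4.96) by FPKM, and between 3.07 and 3.25 times *Vpreb1* under the other lengths. *Cd79a* was 3.06 times *Vpreb3* (interval, 2.83 to 3.31) by FPKM, 2.59 times by coding transcript and 5.18 times in fragments.

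*Vpreb1* has a near copy, *Vpreb2* (ENSMUSG00000059280), at 17980428 to 17981273 of the same chromosome (forward strand), so fragments on these genes can be hard to assign. Their coding sequences, 426 bases each, differ at 9 positions and are identical at 97.9%. Of the stretches of 50 bases in *Vpreb1* transcripts, 18.8% occur in *Vpreb2* as well. The 120 coding bases of *Vpreb1* that hold the most differences within 1 exon are shown beside those of *Vpreb2*, in transcript direction from GENCODE M21 on GRCm38, to show where a fragment could distinguish them. The stretches are coding bases 268 to 387, at chr16:16868638-16868757 on the reverse strand and chr16:17980919-17981038 on the forward strand, and capitals mark the 6 differing bases.
Vpreb1: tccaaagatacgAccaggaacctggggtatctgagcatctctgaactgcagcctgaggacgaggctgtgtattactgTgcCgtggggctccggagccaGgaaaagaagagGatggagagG
Vpreb2: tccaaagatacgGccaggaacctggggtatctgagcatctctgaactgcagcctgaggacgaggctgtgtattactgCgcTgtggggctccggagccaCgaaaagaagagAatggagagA
*Vpreb2* had 1.84 FPKM from 22 fragments (interval, 1.21 to 2.78 FPKM), and *Vpreb1* was 7.19 times *Vpreb2* (exact interval, 4.65 to 11.7). With the longest protein-coding transcript of each gene the ratio was 11.3 (interval, 7.27 to 18.3). How fragments that match both genes were handled is not stated in the sources used here, so both ratios are uncertain beyond their intervals. In addition, 108 exon bases of *Vpreb1*, or 9.01%, overlap *Top3b* on the other strand.

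The V(D)J recombination genes differed in level. *Rag1* and *Rag2* encode the 2 subunits of the recombinase and face each other on chromosome 2 with 5752 bases between them. *Rag1* (ENSMUSG00000061311), on the reverse strand from 101638282 to 101649501, had 11.03 FPKM from 1150 fragments (interval, 10.4 to 11.7 FPKM). *Rag2* (ENSMUSG00000032864), on the forward strand from 101624718 to 101632529, had 1.13 FPKM from 61 fragments (interval, 0.879 to 1.45 FPKM). The interval of *Rag2* includes 1 FPKM, so its place above that minimum was not firm at this depth. *Rag1* was 9.77 times *Rag2*, with an exact interval of 7.55 to 12.9, the largest ratio among the 5 pairs of partner genes compared. The ratio was the same with the longest transcripts and 18.9 without division by length, since the exons of *Rag1* are longer (6608 against 3424 bases). Of the exon bases of *Rag2*, 6.07% overlap exons of *B230118H07Rik*, a gene on the other strand with 1.33 FPKM. For *Rag1*, which lies on the same strand as *B230118H07Rik*, the share was 1.21%.

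*Dntt* (ENSMUSG00000025014), at 41029275 to 41059525 of chromosome 19 (forward strand), encodes terminal transferase, the polymerase that adds bases without a template where gene segments are joined. It had 13.9 FPKM, above 83.3% of the protein-coding genes. Its FPKM times its exon length was not a whole multiple of the step found for the library, so no fragment number and no interval are given. *Dntt*, *Vpreb1* and *Rag1* followed each other closely in the order of FPKM, and the intervals of *Vpreb1* and *Rag1* overlapped. Among the other neighbours in that order of FPKM for which both intervals could be given, none overlapped. The places of *Vpreb1* and *Igll1* in this order depended on the length used. *Rag1* was 1.29 times *Igll1* by FPKM (exact interval, 1.13 to 1.47) but 0.517 times by coding transcript (interval, 0.454 to 0.589). By coding transcript *Igll1*, at 21.3 FPKM, and *Vpreb1*, at 20.7 FPKM, lay above *Rag1*, *Dntt* and *Pax5*, which had 11.03, 14.9 and 18.9 FPKM. *Vpreb1* was then no longer close to *Rag1*.

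The other genes of the recombination reaction are used by many cell types. All 11 end joining and DNA bending genes listed were at 1 FPKM or above, and the median was 5.78 FPKM. *Xrcc6* (Ku70) had 14.8 FPKM and *Xrcc5* (Ku80) 5.11 FPKM, and *Prkdc*, the catalytic subunit of DNA-dependent protein kinase, had 2.43 FPKM. *Dclre1c* (Artemis), which opens the hairpins left by the RAG proteins, had 2.09 FPKM, *Lig4* 2.29 FPKM and *Xrcc4* 2.0 FPKM, the lowest of the list. The highest was *Hmgb2*, a DNA-bending protein and cofactor of RAG cutting that is also abundant in dividing cells, at 355 FPKM. *Rag1* and *Dntt* were above the median of these genes, and *Rag2* was below all of them.

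Of the B lineage transcription factors, *Pax5* was the higher. *Pax5* (ENSMUSG00000014030), at 44524757 to 44710487 of chromosome 4 (reverse strand), encodes the factor that holds cells to the B lineage. Its level was 17.1 FPKM from 2393 fragments (interval, 16.5 to 17.8 FPKM). *Ebf1* (ENSMUSG00000057098), at 44617317 to 45008091 of chromosome 11 (forward strand), encodes a factor that acts upstream of *Pax5* and of the surrogate light chain genes. It had 4.53 FPKM from 697 fragments (interval, 4.203 to 4.875 FPKM). *Ebf1* was 0.264 times *Pax5* (exact interval, 0.243 to 0.288), and 0.390 times when each gene was given the length of its longest transcript. Both genes have many transcripts, 20 for *Pax5* and 7 for *Ebf1*, and the exon length of 9756 bases for *Ebf1* is well above that of its longest transcript, 5981 bases. *Ebf1* remained the lower under every length tried. Of the exon bases of *Pax5*, 8.60% overlap exons of the annotated genes *5730488B01Rik* and *Gm12462*. Of these, *5730488B01Rik* lies on the other strand.

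All 13 other transcription factors listed for the B lineage were at 1 FPKM or above, and the median was 14.8 FPKM, which lies between *Ebf1* and *Pax5*. Those shared with other blood lineages included the highest. *Spi1* (PU.1), which acts in myeloid cells as well, had 137 FPKM, *Ikzf1* (Ikaros) 74.0 FPKM and *Tcf3*, the gene of the E2A proteins, 65.3 FPKM. *Tcf3* was 14.4 times *Ebf1* (exact interval, 13.3 to 15.7) by FPKM, 12.1 times by coding transcript and 5.97 times in fragments. Of those more restricted to B cells, *Pou2af1*, a coactivator of octamer-binding factors, had 54.5 FPKM and *Spib*, which plasmacytoid dendritic cells also use, 61.9 FPKM. *Foxo1*, which drives *Rag1* and *Rag2* in pro-B cells, had 4.95 FPKM, close to *Ebf1* by FPKM. By coding transcript *Ebf1* would have 7.38 FPKM. *Lef1*, known from pro-B cells and T cells, was the lowest at 1.18 FPKM.

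**Figure D2:**
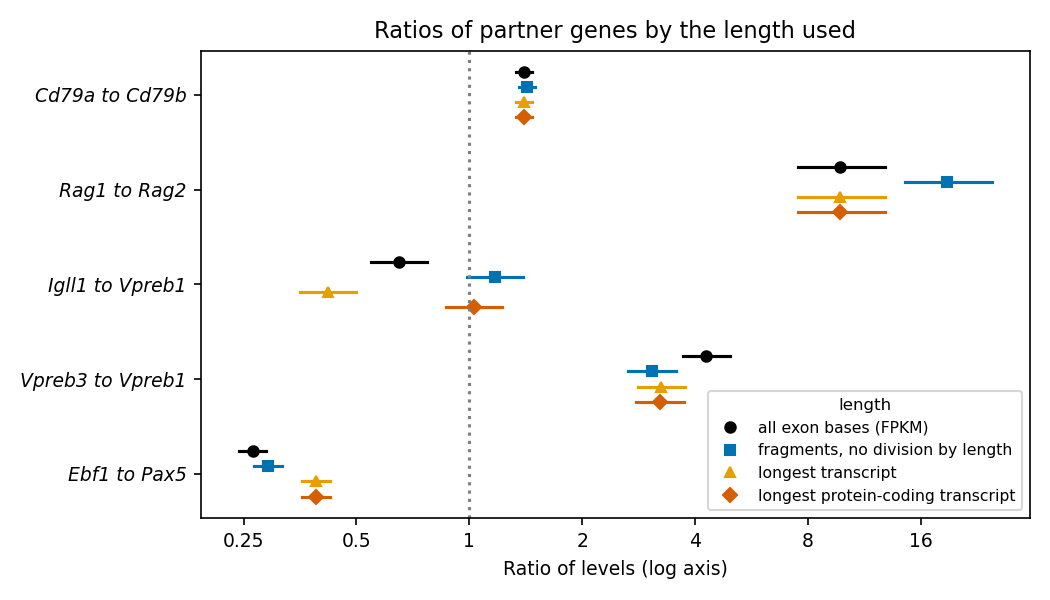
Ratios of 5 pairs of partner genes on a log axis, computed with all exon bases (FPKM), with no division by length, with the longest transcript and with the longest protein-coding transcript. Bars are exact 95% intervals of counting error. *Rag1* to *Rag2* stays far above 1 (9.77 by FPKM), *Ebf1* to *Pax5* stays below 1 (0.264 by FPKM), and *Igll1* to *Vpreb1* lies on either side of 1 (0.649 by FPKM and 1.03 by coding transcript).

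E2A proteins, EBF1 and other factors are known to act at the promoters of several of these genes, and the RefSeq promoter windows (GRCm38.p6, from 250 bases before to 50 bases after each start) were searched on both strands. Windows were matched for 9 of the 10 genes, with 2 windows for *Ebf1*, and not for *Cd79b*. The E-box CACCTG, a sequence bound by E2A proteins, occurred in the windows of 4 genes, *Rag1*, *Cd79a*, *Igll1* and *Vpreb1*, and in 20.2% of all 32851 windows. The E-box CAGCTG occurred in *Rag1* and *Igll1*, and in 16.3% of all windows. The core CCCNNGGG of the palindrome bound by EBF1 was in that of *Igll1* and in 13.7% of all. The octamer ATGCAAAT was in that of *Vpreb3* and in 1.74% of all, and the Ikaros core TGGGAA was in those of *Ebf1* and *Rag1* and in 25.6% of all. A match is a sequence of letters and does not show that a factor was bound. The 4 windows with CACCTG are shown because these genes represent 3 of the 4 roles and range from 8.58 to 173 FPKM. They are written in the direction of transcription, and capitals mark the E-box, which reads as its reverse complement in all but *Igll1*. It overlaps none of the other motifs searched, and its first base lies 135 bases before the start of *Rag1*, 154 before that of *Cd79a*, 8 before that of *Igll1* and 88 before that of *Vpreb1*. The windows are at chr2:101649483-101649782 (reverse), chr7:24897247-24897546 (forward), chr16:16863936-16864235 (reverse) and chr16:16869206-16869505 (reverse).
Rag1: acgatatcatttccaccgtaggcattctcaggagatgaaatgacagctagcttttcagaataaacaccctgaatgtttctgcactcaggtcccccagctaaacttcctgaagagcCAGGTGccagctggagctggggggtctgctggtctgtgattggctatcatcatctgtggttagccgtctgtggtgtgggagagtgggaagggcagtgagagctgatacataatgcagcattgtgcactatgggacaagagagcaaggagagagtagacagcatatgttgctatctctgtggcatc
Cd79a: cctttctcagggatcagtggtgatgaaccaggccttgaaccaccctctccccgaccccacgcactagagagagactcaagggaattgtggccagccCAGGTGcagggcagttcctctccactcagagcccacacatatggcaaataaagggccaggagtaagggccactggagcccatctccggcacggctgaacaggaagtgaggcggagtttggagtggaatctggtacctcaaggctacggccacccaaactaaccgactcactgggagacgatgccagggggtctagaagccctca
Igll1: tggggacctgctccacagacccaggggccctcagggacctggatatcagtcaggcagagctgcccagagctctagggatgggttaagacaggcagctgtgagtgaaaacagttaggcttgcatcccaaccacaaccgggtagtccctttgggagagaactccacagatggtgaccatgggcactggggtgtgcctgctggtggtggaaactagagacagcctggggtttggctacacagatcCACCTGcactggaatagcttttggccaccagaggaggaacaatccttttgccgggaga
Vpreb1: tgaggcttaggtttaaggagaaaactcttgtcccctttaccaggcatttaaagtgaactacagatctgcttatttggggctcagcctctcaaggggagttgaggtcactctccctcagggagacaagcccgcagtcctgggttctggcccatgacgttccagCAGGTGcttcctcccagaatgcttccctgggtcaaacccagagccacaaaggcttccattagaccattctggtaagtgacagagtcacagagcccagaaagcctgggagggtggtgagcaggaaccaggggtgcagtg

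**Figure D3:**
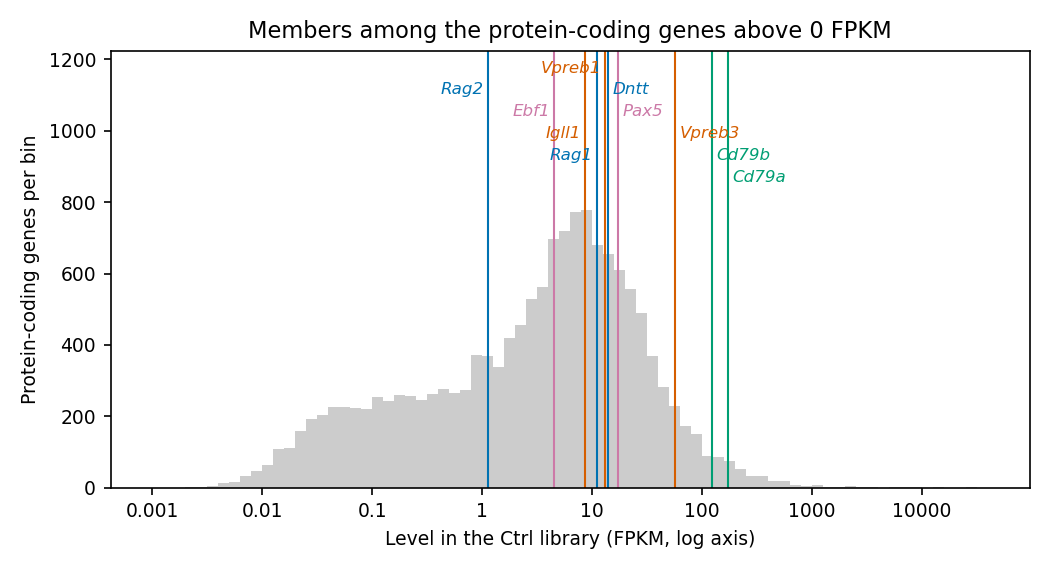
Number of protein-coding genes per bin of level (0.1 on the log10 scale of FPKM) in the Ctrl library, among those above 0 FPKM, with the 10 genes as vertical lines coloured by role. *Rag2* lies at 1.13 FPKM, left of the peak, the 6 genes from *Ebf1* to *Pax5* lie around it, and *Vpreb3*, *Cd79b* and *Cd79a* lie in the right tail.

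RNA of genes for the proteins that signal below CD79a and CD79b was read as well. All 10 genes of this list were at 1 FPKM or above, and the median was 35.6 FPKM. *Syk*, the kinase that binds the phosphorylated CD79 chains, had 64.1 FPKM, *Lyn* 62.9 FPKM and *Plcg2* 70.8 FPKM, and all 3 are also used in myeloid cells. *Blk*, a kinase of B cells, had 20.4 FPKM, *Blnk*, the adaptor required after the pre-B cell receptor, 7.67 FPKM, and *Bank1*, an adaptor of later B cells, was the lowest at 5.81 FPKM.

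Receptors of lymphoid progenitors were, with 1 exception, lower than the signalling pair, and all 6 listed were above 1 FPKM. *Il7r*, the receptor for the main growth factor of mouse pro-B cells, had 6.59 FPKM (interval, 6.03 to 7.20), and *Flt3*, found on multipotent and lymphoid progenitors, had 4.90 FPKM. *Ly6d*, which marks lymphoid progenitors set on the B lineage and stays on B cells, had 137 FPKM. Among the 6 surface markers of the pro-B and pre-B stages, *Enpep* (BP-1), a mark of late pro-B and pre-B cells, was the only gene under 1 FPKM, at 0.727 FPKM from 54 fragments (interval, 0.557 to 0.948). *Il2ra* (CD25), a mark of small pre-B cells, had 1.26 FPKM, near *Rag2*. *Spn* (CD43), which pro-B cells share with myeloid progenitors, had 60.6 FPKM, and *Cd24a*, which red cell precursors express as well, had 1016 FPKM.

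The mature B cell genes ranged from 2.13 to 60.3 FPKM, which lies within the range of the early genes. All 8 of them reached 1 FPKM, and their median of 14.3 FPKM was close to the 13.5 FPKM of the 10 early genes. *Ighd*, the constant region of IgD made by mature naive B cells, had 60.3 FPKM (interval, 57.6 to 63.2), which was 4.57 times *Vpreb1* (exact interval, 3.999 to 5.233) by FPKM and 3.07 times by coding transcript. *Ms4a1* (CD20) had 17.8 FPKM and *Fcer2a* (CD23), a mark of follicular B cells, 14.4 FPKM. *Cr2* (CD21) was the lowest, at 2.13 FPKM. The conventional light chain constant region *Igkc* had 4323 FPKM, 504 times the surrogate light chain gene *Igll1* (exact interval, 449 to 567) and 203 times by coding transcript. *Ighm*, the constant region of the heavy chain that pairs with both kinds of light chain, had 2005 FPKM. That was 11.6 times *Cd79a* (exact interval, 11.2 to 12.0) by FPKM and 12.9 times by coding transcript. Of the IgG and IgA constant regions, *Ighg2b* had 368 FPKM, *Igha* 274 FPKM and *Ighg2c* 114 FPKM. *Ighg1*, at 52.1 FPKM, was the lowest of the 9 constant region genes listed. Which cells the immunoglobulin RNAs came from was not tested. These RNAs were in the same library as those of the early genes, and how much of *Cd79a*, *Cd79b*, *Pax5* and *Vpreb3* came from each stage was not tested.

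Plasma cell, T lineage and plasmacytoid dendritic cell genes were read as well, since these cells share some of the 10 genes or their partners. All 6 plasma cell genes reached 1 FPKM, from 1.08 FPKM for *Prdm1* (Blimp-1) to 246 FPKM for *Jchain*, which joins the units of secreted IgM and IgA and was 1.42 times *Cd79a* (exact interval, 1.37 to 1.48) by FPKM and 2.57 times by coding transcript. Of the 9 T lineage genes 7 were at 1 FPKM or above, with a median of 5.02 FPKM and a range from 0 to 14.6 FPKM. *Tcf7* was the highest, above the 13.5 FPKM median of the 10 early genes. *Pax5* was 1.17 times *Tcf7* (exact interval, 1.07 to 1.28) by FPKM and 3.96 times in fragments. *Ptcra*, the surrogate chain of the T cell receptor and the thymic counterpart of *Vpreb1* and *Igll1*, was listed at 0, and 3 fragments would give 0.148 FPKM. *Cd3d*, a signalling chain of the T cell receptor, had 8.55 FPKM, and *Cd79a* was 20.2 times higher (exact interval, 17.8 to 23.1). The 5 plasmacytoid dendritic cell genes, all above 1 FPKM, ranged from 1.84 FPKM for *Tcf4* to 85.6 FPKM for *Bst2*, with *Siglech* at 17.3 FPKM. The part of these cells in the levels of *Rag1* and *Dntt* was not tested.

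**Figure D4:**
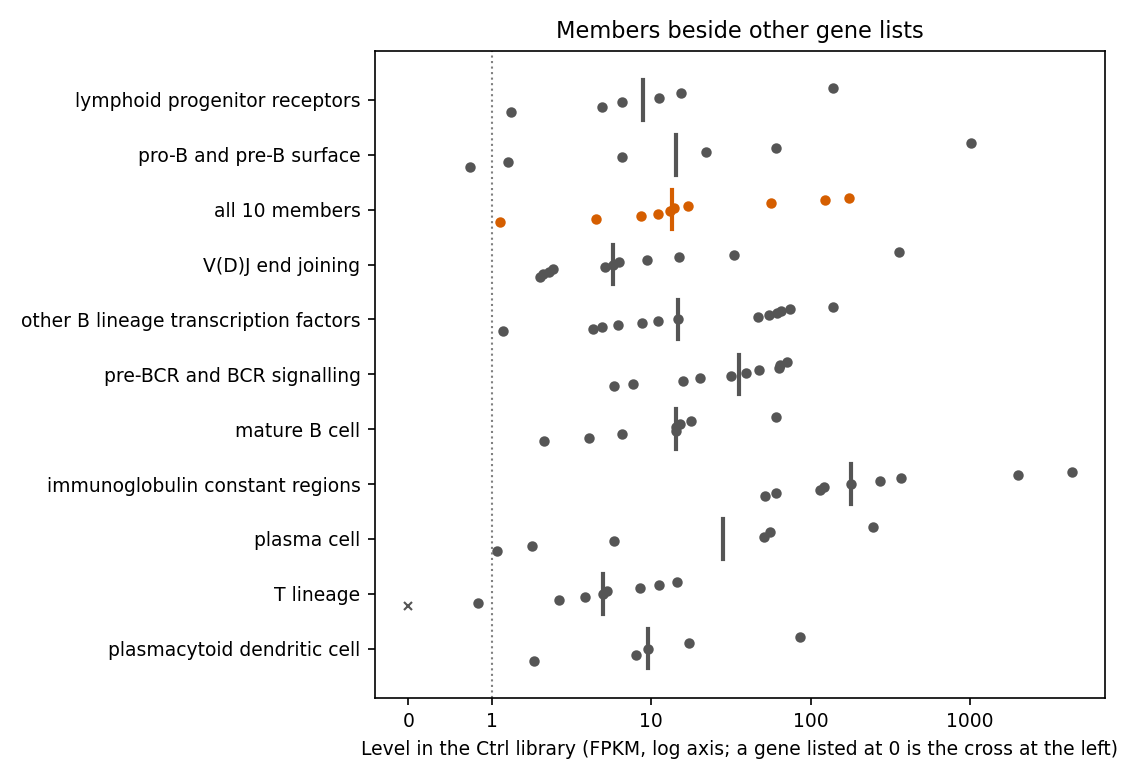
Levels of the 10 early B cell development genes (coloured) beside the genes of 10 other lists in the Ctrl library, in FPKM on a log axis. Each point is a gene, vertical bars are list medians, the dotted line marks 1 FPKM and the cross is *Ptcra*, listed at 0. The median of the early genes, 13.5 FPKM, lies near that of the mature B cell list, 14.3 FPKM, and below that of the immunoglobulin constant regions, 178 FPKM.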

How the data were processed

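RNA from sorted c-kit+ BM cells was made into Illumina libraries and sequenced. The deposited values are FPKM, 1 per Ensembl gene, for 1 Ctrl library. The submitters' processing notes name HISAT2 2.0.5, featureCounts 1.5.0-p3 and the build mm10. The annotation, the strand setting and the treatment of fragments that match several genes are not given in the sources used here.

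Names, exon lengths (bases covered by any exon) and coordinates came from GENCODE M21 on GRCm38, which lacks 37 of the 54532 identifiers. FPKM times length was a whole multiple of 1 step, within 0.01, for 20547 of 21313 genes above 0 (96.4%), and for 9 of the 10 members. Rounded, the multiples were used as fragments, 17113323 in all, while the step itself corresponds to 15783891. The recovery was tested on data simulated from these fragments, and only genes whose length was kept correct were scored. That test could not address the difference between the totals. Levels have 95% Wilson intervals and ratios exact (Clopper-Pearson) intervals. With 1 library these cover counting error only. They also take fragments as independent, which PCR copies are not, so they can be too narrow. A gene at 0 was given the level of 3 fragments.

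With 1 library no test was made and no pattern across samples was compared. The rule that names the members uses no measured value, but the members and the 12 other gene lists were chosen with earlier results of these data known. The 5 pairs of partner genes were fixed with them, and the other ratios were picked after the levels were seen, as were the motifs. Genes named from a list are mostly its highest, its lowest, those at 0 and those with a role described here. Not every highest or lowest gene is named. Alternatives were other detection minimums, totals, lengths and fragments in place of FPKM. Calculations used scipy 1.17.1, pandas 2.3.3 and numpy 2.4.6 in Python 3.11.15, and figures matplotlib 3.10.9. The value of 1 gene counted in the signalling list is not reported here.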

Additional observations from a re-analysis of the deposited data

How the results depend on the processing

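No paired analysis was possible because only 1 library, of the Ctrl group, was analysed here. The 10 members at 1 FPKM were also 10 at 0.1 FPKM and 7 at 10 FPKM. Leaving the 10 most abundant genes or the mitochondrial genes out of the total multiplied every level by 1.09 or 1.02. The median of 13.5 FPKM was 19.8 FPKM with the longest protein-coding transcript and 12.1 FPKM without *Cd79a* and *Cd79b*, both chosen after seeing the data. By that transcript length *Kit* would have 12.2 FPKM, with 7 members above it in place of 8. The share of 0.0985% was 0.133% without the 10 most abundant genes, 0.0752% in recovered fragments and 0.0294% without *Cd79a* and *Cd79b*.

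Length decided some ratios. *Igll1* to *Vpreb1*, 0.649 by FPKM, was 0.419 with the longest transcript and turned to 1.03 with the longest protein-coding transcript, whose length leaves out the retained intron of *Igll1*, and to 1.17 in fragments. *Rag1* to *Rag2*, 9.77, was 18.9 in fragments. *Vpreb3* to *Vpreb1*, 4.28, was 3.07 in fragments, 3.25 with the longest transcript and 3.22 with the longest protein-coding one. *Ebf1* to *Pax5*, 0.264, was 0.291 in fragments and 0.390 with either transcript length. *Cd79a* to *Cd79b* stayed within its interval. Keeping only genes at 1 FPKM or more could change a median in 2 lists, and that of the pro-B and pre-B surface genes went from 14.4 to 22.1 FPKM without *Enpep* and that of the T lineage genes from 5.02 to 5.25 FPKM. Variation from mouse to mouse could not be measured with 1 library.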
